A study of Mus musculus with 8 samples.

Results

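The genes described here are 37 mouse genes of fatty acid uptake, storage and oxidation. They were chosen by name and not by their values, though earlier results of these data were known. All 37 were found among the 23282 genes of a read count table, through their Entrez numbers, and all 37 passed the filter on low counts. The table came from RNA-seq of whole hearts, all from FVB/N males at 4 months of age. One group was wild type and the other was AE3-null, which lacks normal Slc4a3, the gene of the chloride/bicarbonate exchanger AE3, with 4 libraries in each. Strain, sex, age and tissue were the same in both groups. The labels do not say how the null allele was made or in which cells it acts, and hearts were not divided into chambers or cell types. The series' description gives 4 mice per genotype, but no label ties a library to an animal, so a p-value here reflects only library-to-library spread, which may be technical.

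Long-chain fatty acids are the main fuel of the adult heart. Lipoprotein lipase frees them from circulating lipoproteins at the capillary wall, transporters such as CD36 carry them into the cell, and acyl-CoA synthetases activate them by joining them to coenzyme A. The carnitine shuttle moves the acyl group into the mitochondrion, where repeated cycles of oxidation shorten it to acetyl-CoA. What is not burned can be stored as triglyceride in lipid droplets.

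The libraries held between 9133628 and 27078351 counts, the fewest in AE3-null replicate 2. Slc4a3 fell from 384 ± 4.60 to 32.9 ± 1.26 CPM (counts scaled to a common library size; SD, n = 4; edgeR adjusted p 2.83e-19), and no library went against its genotype label. The 8 general and ventricular markers of heart muscle were present at high levels, summing to between 84884 and 91822 CPM in the 8 libraries. Myh6 alone had a mean of 47853 CPM in wild type. Of 14136 tested genes, 6.47% were called by edgeR's quasi-likelihood test at an adjusted p under 0.05, with 3.16% higher and 3.31% lower in AE3-null hearts. Wild-type replicate 3 differed from the other wild-type libraries in many of the genes described here, so values with and without it are given below.

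Among the 37 genes, 2 rose and 2 fell in AE3-null hearts. The acyl-CoA synthetase genes Acsl1 and Acsl4 rose by 11.9% and 20.3%. Acadl, the long-chain acyl-CoA dehydrogenase, fell by 9.23%, and the fatty acid transporter gene Cd36 fell by 8.93%. Those 4 genes are 10.8% of the list, beside 6.47% of all tested genes. All the changes were small: log2 fold changes ran from -0.15 for Acsl3 to 0.27 for Acsl4, and 26 of 37 genes (70.3%) lay within 0.1 of 0, against 54.9% of all tested genes. The median level was 280.6 CPM in the list and 20.3 CPM in all tested genes, with a median SE of 0.0393 and 0.0747. The shares near 0 therefore do not compare genes measured equally well. The median log2 fold change was 0.030 for the list and -0.0018 for all tested genes, with 24 values above 0 and 13 below. In 4 of the 37 genes (10.8%) the libraries of the genotypes did not overlap, compared with 12.2% of all tested genes. An unadjusted p under 0.05 was found for 6 genes (16.2%), compared with 21% of all tested genes.

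**Figure D1:**
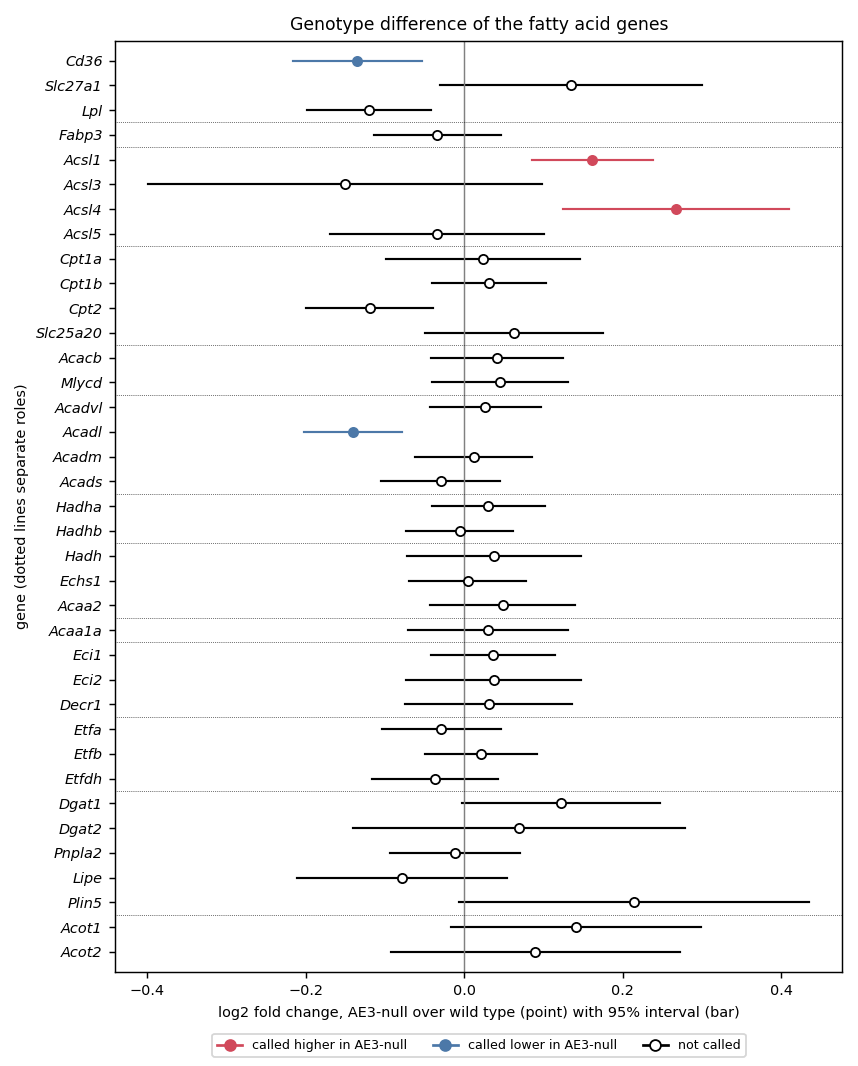
Log2 fold change of AE3-null over wild type for each of the 37 genes (point) with its 95% interval (bar), grouped by role with dotted lines between roles. Filled red points are genes called higher (Acsl1, Acsl4), filled blue points genes called lower (Cd36, Acadl), and open points the other genes, which lie between -0.15 and 0.21.

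The sequences before the starts of the 4 called genes are shown because these genes moved in opposite directions. They are the 250 bases before each start listed in a RefSeq promoter table (build GRCm38.p6), written 5′ to 3′ on the strand of the gene. Capitals mark the GC box core GGGCGG, read on both strands, and the nuclear receptor motif AGGTCA, read on both strands. Neither motif overlaps the other in these windows. The bases just after the start were found in a GENCODE M21 transcript of the gene for both Acsl1 starts and for Acsl4, and not for Acadl and Cd36.
Acadl, chr1:66863310-66863559, minus strand: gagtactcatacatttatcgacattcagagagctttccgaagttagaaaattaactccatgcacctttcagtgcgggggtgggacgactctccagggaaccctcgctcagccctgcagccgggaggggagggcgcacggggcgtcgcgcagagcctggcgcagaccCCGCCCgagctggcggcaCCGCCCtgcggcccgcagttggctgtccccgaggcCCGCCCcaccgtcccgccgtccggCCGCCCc
Acsl1 upstream start, chr8:46470787-46471036, plus strand: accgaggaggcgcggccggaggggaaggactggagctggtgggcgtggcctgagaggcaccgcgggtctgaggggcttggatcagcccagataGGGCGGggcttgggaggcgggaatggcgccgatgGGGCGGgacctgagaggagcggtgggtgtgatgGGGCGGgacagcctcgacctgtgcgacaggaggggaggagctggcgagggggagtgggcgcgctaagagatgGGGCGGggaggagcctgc
Acsl1 downstream start, chr8:46490716-46490965, plus strand: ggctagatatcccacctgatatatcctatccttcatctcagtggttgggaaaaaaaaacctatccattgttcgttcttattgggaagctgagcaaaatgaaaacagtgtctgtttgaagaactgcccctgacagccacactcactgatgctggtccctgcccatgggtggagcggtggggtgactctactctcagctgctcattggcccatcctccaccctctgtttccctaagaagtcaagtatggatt
Acsl4, chrX:142390536-142390785, minus strand: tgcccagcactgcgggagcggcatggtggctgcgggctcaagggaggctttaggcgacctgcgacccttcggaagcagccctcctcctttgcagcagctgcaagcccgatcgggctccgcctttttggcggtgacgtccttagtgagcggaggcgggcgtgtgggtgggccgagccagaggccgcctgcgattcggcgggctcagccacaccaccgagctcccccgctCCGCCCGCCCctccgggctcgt
Cd36, chr5:17835897-17836146, minus strand: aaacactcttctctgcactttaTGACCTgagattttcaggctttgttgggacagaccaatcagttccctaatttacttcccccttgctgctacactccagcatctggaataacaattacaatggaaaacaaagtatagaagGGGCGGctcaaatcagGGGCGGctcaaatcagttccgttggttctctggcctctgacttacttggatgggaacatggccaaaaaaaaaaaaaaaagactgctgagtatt

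Acadl and the upstream start of Acsl1 each held 4 GC box cores. Acsl4 held 2 that overlap each other by part of their length, and Cd36 held 2. The downstream start of Acsl1 held neither motif. One copy of AGGTCA, read on the opposite strand, stood before the start of Cd36. Of the 37 genes, 31 were in the promoter table with 36 starts. A GC box core was found before 63.9% of these starts and before 32.7% of all 32851 starts of the table, and AGGTCA before 16.7% and 14.0%. These are matches of letters and do not show that a factor binds.

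Uptake begins at the capillary. Lpl, lipoprotein lipase, measured 5243, 5359.6, 5133 and 5335 CPM in wild-type replicates 1 to 4 and 5172, 4936, 4714 and 4559.6 CPM in AE3-null replicates 1 to 4. AE3-null replicate 1 lay above the lowest wild-type library, so the groups overlapped. The log2 fold change of Lpl was -0.12 (SE 0.0370, edgeR adjusted p 0.0624), which did not pass the threshold. It was called without wild-type replicate 3 (adjusted p 0.0368) and without AE3-null replicate 1 (adjusted p 0.0259), and with no filter on low counts (adjusted p 0.0383).

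Cd36 encodes the scavenger receptor that takes up long-chain fatty acids in muscle and capillary cells. It measured 2003, 1995, 1988 and 1976 CPM in the wild-type libraries and 1795, 1959, 1810.3 and 1689 CPM in the AE3-null libraries. The wild-type values lay close together and all AE3-null values were lower, with AE3-null replicate 2 just below the lowest of them. Cd36 fell by 0.13 on the log2 scale (SE 0.0386, edgeR adjusted p 0.0469). The call was the weakest of the 4 and was lost in 9 of 18 alternatives. It was lost without each of 6 single libraries (edgeR adjusted p up to 0.163, without AE3-null replicate 4). It was also lost with scaling by total counts only (0.110), without robust moderation (0.0766) and with a filter of at least 10 CPM in 4 libraries (0.0605).

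Markers of endothelial cells, which also express Cd36, were lower in the same hearts: 5 of 10 were called lower, all 10 had negative log2 fold changes, and their summed level was 1717 to 1881 CPM in wild-type and 1506 to 1577.5 CPM in AE3-null libraries. Pecam1, a junction protein of endothelial cells, fell from 228 ± 9.01 to 190.4 ± 9.87 CPM (SD, n = 4). The ratio of Cd36 to the sum of the 10 markers was 1.05 to 1.16 in wild-type and 1.12 to 1.24 in AE3-null libraries, which overlapped. Against single markers, the mean ratio of Cd36 was higher in AE3-null hearts for 6 of 10 and lower for 4, and only against Pecam1 did the libraries not overlap (8.26 to 9.11 and 9.17 to 9.82). The ratio of Lpl to the sum was 2.84 to 2.998 in wild-type and 3.01 to 3.34 in AE3-null libraries, just short of overlap. Its mean was higher in AE3-null hearts against 7 of 10 single markers and lower against 3, again without overlap only against Pecam1. In whole hearts, fewer cells of a type and less RNA per cell cannot be told apart. The part of endothelial cells in the values of Cd36 and Lpl was not tested.

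Markers of other cell types also differed between the genotypes. Of 6 atrial muscle markers, 5 were called higher, and Bmp10 was not called, with a log2 fold change of -0.052. The sum of the 6 was 2892 to 3447 CPM in wild-type and 3844 to 4438 CPM in AE3-null libraries. Nppa, with means of 2077 and 2783 CPM, weighed most in it. Of 6 smooth muscle and pericyte markers, 2 were called higher (Myh11 and Abcc9) and 1 had a negative log2 fold change. Their sums were 1271 to 1319 and 1372 to 1483 CPM. Abcc9, the most abundant of the 6 with means of 644 and 720 CPM, weighed most in these sums. Myh11 and Abcc9 did not overlap between the genotypes, while Acta2, Tagln, Rgs5 and Pdgfrb did. The gap between the sums therefore does not describe the 6 markers as a set. None of the 4 tested red blood cell markers was called by edgeR, but their sums did not overlap, at 2413 to 3840 and 1672 to 2321 CPM. Of the 8 general and ventricular markers of heart muscle 2 were called higher (Tnnt2 and Pln), and of 7 fibroblast markers 1 was called lower. The part of these in the values of the 37 genes was not tested.

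Slc27a1 encodes the fatty acid transport protein FATP1. Its level was 163, 150.2, 195 and 156 CPM in wild-type and 180.4, 172, 188 and 188 CPM in AE3-null libraries. Wild-type replicate 3 was the highest of all 8 libraries and the other wild-type libraries were below every AE3-null library. With all libraries the change was log2 0.13 with an SE of 0.0740 (edgeR adjusted p 0.340). Without wild-type replicate 3 it was 0.22 and the gene was called (edgeR adjusted p 0.00166).

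Fabp3, the heart fatty acid-binding protein that carries fatty acids through the cytosol, had the highest level per kilobase of exon of the 37 genes, 2374 ± 126 in wild-type and 2319 ± 59.3 in AE3-null hearts (CPM per kilobase; SD, n = 4). Its libraries overlapped, at 1834, 1971, 2084 and 1928 CPM in wild type and 1934, 1964, 1881 and 1857 CPM in AE3-null. Fabp3 had a log2 fold change of -0.034, with an SE of 0.0378 (edgeR adjusted p 0.672).

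**Figure D2:**
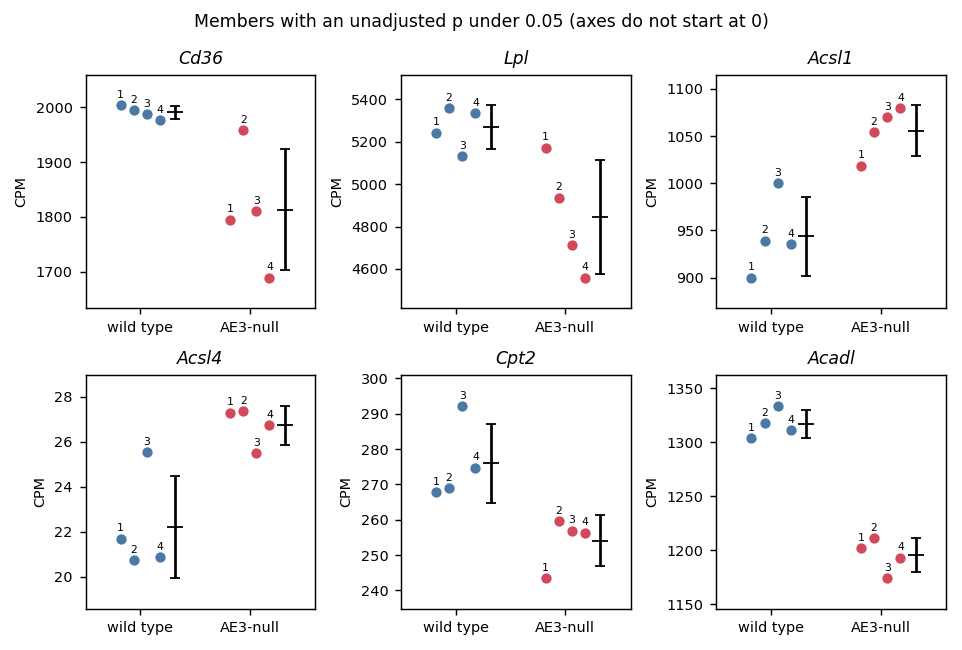
CPM of the 6 genes with an unadjusted p under 0.05 in each library, with replicate numbers beside the points and the mean and SD of 4 libraries as black bars. The vertical axes do not start at 0. Acsl1, Acadl, Cd36 and Cpt2 have no overlap between the genotypes, whereas Lpl overlaps in AE3-null replicate 1 and Acsl4 in wild-type replicate 3.

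Of the 4 genes of activation to acyl-CoA, 2 rose. Acsl1, the main long-chain acyl-CoA synthetase of heart muscle, measured 900.0, 939, 1000.1 and 935 CPM in wild-type libraries and 1019, 1054, 1070.0 and 1079 CPM in AE3-null libraries. Every AE3-null library lay above every wild-type library, and wild-type replicate 3 came nearest to them. Acsl1 rose by log2 0.16 (SE 0.0362, edgeR adjusted p 0.0137). Its call was kept in 17 of 18 alternatives and lost without AE3-null replicate 4 (log2 0.15, adjusted p 0.0576).

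Acsl4 prefers arachidonic acid and other polyunsaturated fatty acids. It stood at 21.7, 20.7, 25.5 and 20.9 CPM in wild-type and at 27.3, 27.4, 25.5 and 26.7 CPM in AE3-null libraries. Wild-type replicate 3 and AE3-null replicate 3 were about equal, and the other wild-type libraries were lower than all AE3-null libraries. Acsl4 rose by log2 0.27 (SE 0.0673, edgeR adjusted p 0.0252). The adjusted p rose above 0.05 without each of 6 single libraries, to at most 0.0946 without wild-type replicate 4, while the log2 fold change stayed between 0.24 and 0.34 in all 18 alternatives.

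The other synthetases were not called. Acsl3, an isoform of the endoplasmic reticulum and lipid droplets, was the lowest of the 37 genes with 6.05 to 9.59 CPM, and its log2 fold change of -0.15 had the widest error (SE 0.117). Acsl5 had a log2 fold change of -0.034 (SE 0.0636). Per kilobase of exon, Acsl1 made up 94.3% ± 0.341 of the 4 synthetase transcripts in wild-type and 94.7% ± 0.337 in AE3-null hearts (SD, n = 4). Acsl4 made up 1.73% ± 0.118 and 1.88% ± 0.0932, so the relative rise of Acsl4 was on a small share.

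With all libraries none of the 4 genes of the carnitine shuttle was called, although Cpt2 fell by 7.94% without overlap between the genotypes. Cpt1b, the muscle form of the outer-membrane carnitine palmitoyltransferase that commits fatty acids to oxidation, measured 720.0, 732, 769 and 744 CPM in wild-type and 744, 750.3, 745 and 790.2 CPM in AE3-null libraries, a log2 fold change of 0.032 (SE 0.0339, edgeR adjusted p 0.657). Cpt1a, the liver form, stood at 51.1 to 62.5 CPM. Cpt1b was 95.2% ± 0.311 of the sum of both forms per kilobase of exon in wild-type hearts and 95.2% ± 0.399 in AE3-null hearts (SD, n = 4), so the balance of the forms did not move beyond the spread.

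Cpt2, the inner-membrane transferase that rebuilds acyl-CoA in the matrix, measured 268, 269, 292 and 275 CPM in wild-type and 244, 259.5, 257 and 256 CPM in AE3-null libraries. The genotypes did not overlap. The difference was log2 -0.12 with an SE of 0.0377 (edgeR adjusted p 0.0701), short of the threshold. Over the 18 alternatives the log2 fold change of Cpt2 ran from -0.13 to -0.088, and it was called only with the threshold at 0.1. Slc25a20, the carnitine-acylcarnitine carrier of the inner membrane, had a log2 fold change of 0.063 (SE 0.0527), which became 0.13 and was called without wild-type replicate 3 (edgeR adjusted p 0.0448).

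Malonyl-CoA inhibits the outer-membrane transferase. Acacb, the acetyl-CoA carboxylase that makes it at the mitochondrion, measured 579, 576, 537 and 583 CPM in wild-type and 557, 569, 614 and 601 CPM in AE3-null libraries. Mlycd, the decarboxylase that removes it, ranged from 103 to 117 CPM. The groups overlapped in both genes, with log2 fold changes of 0.041 (SE 0.0393, edgeR adjusted p 0.603) and 0.046 (SE 0.0406).

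Inside the mitochondrion, the acyl-CoA dehydrogenases begin each cycle and differ in the chain length they accept. Acadl measured 1304, 1318, 1334 and 1312 CPM in wild-type libraries and 1202, 1211, 1175 and 1193 CPM in AE3-null libraries. The gap between the groups was wider than the spread within either, and no library was near the other group. Acadl fell by 0.14 on the log2 scale (SE 0.0292, edgeR adjusted p 0.00928), and it kept its call in all 18 alternatives, with adjusted p-values from 4.97e-05 to 0.0394 and log2 fold changes from -0.14 to -0.12.

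The very long-chain enzyme gene Acadvl, the medium-chain gene Acadm and the short-chain gene Acads had log2 fold changes of 0.027 (SE 0.0330), 0.012 (SE 0.0347) and -0.029 (SE 0.0355). The ratio of Acadl to Acadm CPM was 1.12 to 1.23 in wild-type and 1.04 to 1.07 in AE3-null libraries. The ratio of Acadl to Acadvl was 1.18 to 1.25 and 1.07 to 1.12. Neither ratio overlapped between the genotypes.

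Acadl lies on chromosome 1, as Slc4a3 does, and within 10 Mb of it in the RefSeq annotation. Its neighbouring protein-coding genes there are Kansl1l and Myl1. Myl1, a myosin light chain gene, fell by 2.21 on the log2 scale (SE 0.0688), from a mean of 75.4 CPM to 16.3 CPM, while Kansl1l had a log2 fold change of 0.017 (SE 0.0671). Of 86 tested genes within 10 Mb of Slc4a3, 14 (16.3%) were called, 12 lower and 2 higher, beside 6.41% of the 14050 other tested genes. Slc4a3 itself, lost by design, is counted among the 86 and the 14, as are Myl1 and Acadl. Log2 fold changes had a median size of 0.0866 inside that window and 0.0883 outside it. Acsl3 is the only other gene of the 37 in that window, and it was not called. The loss of AE3 and any DNA inherited along with the null allele cannot be told apart in this design.

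The remaining mitochondrial enzymes gave no call. The mitochondrial trifunctional protein, which runs the later steps on long chains, is encoded by Hadha and Hadhb. Hadhb, the higher of the pair per kilobase, measured 1443, 1454, 1539 and 1451 CPM in wild-type and 1456, 1498, 1462 and 1447 CPM in AE3-null libraries, with a log2 fold change of -0.0057 (SE 0.0318, edgeR adjusted p 0.947). Hadha had 0.031 (SE 0.0337). The thiolase gene Acaa2 measured 674, 626, 739 and 663 CPM in wild-type and 691, 682, 707 and 714 CPM in AE3-null libraries. Apart from wild-type replicate 3, all its wild-type libraries were below all its AE3-null libraries (log2 0.048, SE 0.0430, edgeR adjusted p 0.568).

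The hydratase gene Echs1 and the short-chain dehydrogenase gene Hadh had log2 fold changes of 0.0043 and 0.038. Eci1, Eci2 and Decr1, which handle the double bonds of unsaturated fatty acids, had 0.036, 0.037 and 0.031. Eci1, the highest of these per kilobase, measured 260.1, 275, 285 and 288 CPM in wild-type and 287, 278, 284 and 287 CPM in AE3-null libraries (edgeR adjusted p 0.637). Etfa, Etfb and Etfdh, which pass the electrons of the dehydrogenases to the respiratory chain, had log2 fold changes of -0.029, 0.021 and -0.037. Etfb measured 487, 482, 502 and 488 CPM in wild-type and 491, 478, 509.8 and 507 CPM in AE3-null libraries, which overlapped (edgeR adjusted p 0.785). Across these 14 mitochondrial genes other than Acadl, the 95% intervals of the change lay between -7.78% and 10.8%. The peroxisomal thiolase gene Acaa1a measured 58.6, 53.2, 58.5 and 52.8 CPM in wild-type and 57.0, 56.0, 57.6 and 57.0 CPM in AE3-null libraries, all of them inside the wild-type range, with a log2 fold change of 0.030 (SE 0.0479, edgeR adjusted p 0.781).

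**Figure D3:**
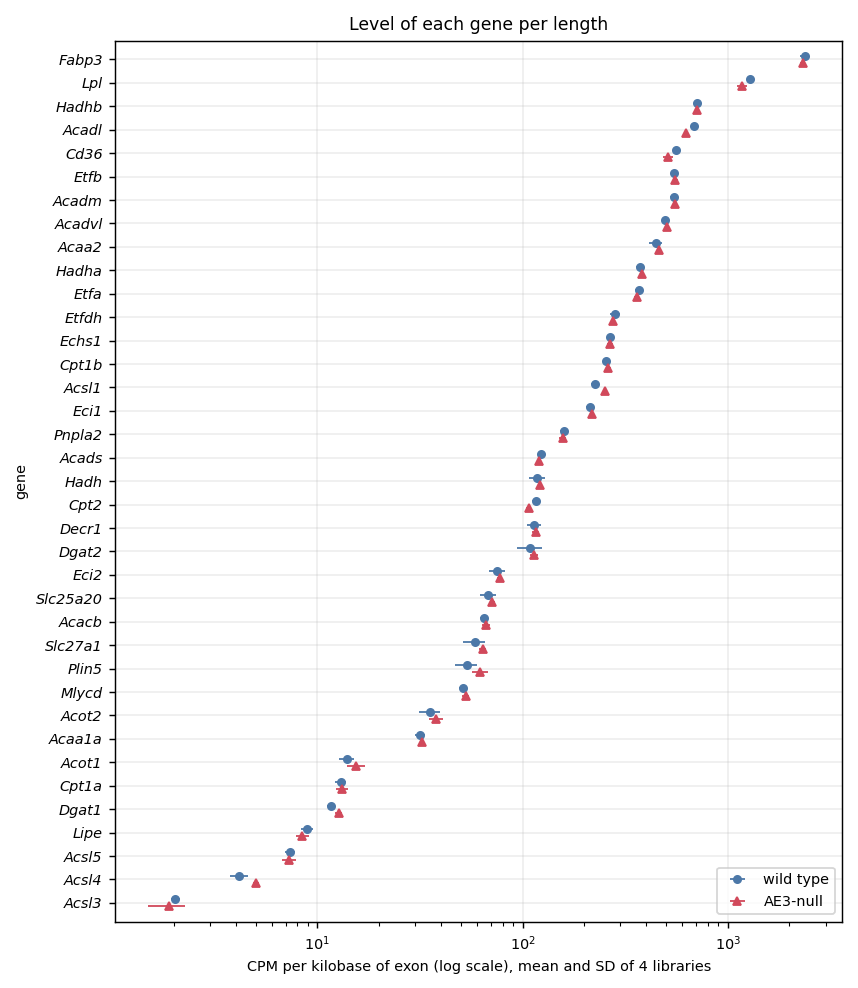
Level of each gene as CPM per kilobase of exon on a log scale, as mean and SD of 4 libraries, for wild type (circles) and AE3-null (triangles). The genes run from Fabp3 at 2374 and Lpl at 1280.2 down to Acsl4 at 4.17 and Acsl3 at 2.03 in wild type, and the genotypes nearly coincide in most.

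Per kilobase of exon the genes spanned a wide range. Lpl followed Fabp3 with 1280.2 ± 25.0, then Hadhb with 707.5 ± 21.6, Acadl with 687 ± 6.67, Cd36 with 563 ± 3.24, Etfb with 548 ± 9.91 and Acadm with 548 ± 23.6 in wild type (CPM per kilobase; SD, n = 4). Hadhb was above Acadl in all 4 wild-type libraries, while Etfb and Acadm lay within the SD of each other. In AE3-null hearts Acadl was at 624 ± 8.2, further below Hadhb at 705 ± 10.7 (SD, n = 4). The lowest levels were those of Acsl5, Acsl4 and Acsl3, at 7.4 ± 0.42, 4.17 ± 0.423 and 2.03 ± 0.101.

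None of the 5 genes of triglyceride storage and breakdown among the 37 was called. Pnpla2, the adipose triglyceride lipase that starts the breakdown of stored fat, measured 409.7, 420.0, 399 and 438 CPM in wild-type and 405, 395, 432 and 420.2 CPM in AE3-null libraries, a log2 fold change of -0.011 (SE 0.0387, edgeR adjusted p 0.905). Lipe, the hormone-sensitive lipase, had -0.078 (SE 0.0624). Plin5, the droplet coat protein of oxidative muscle, measured 100.1, 129, 116 and 102 CPM in wild-type and 123, 129.9, 146 and 119.5 CPM in AE3-null libraries. The AE3-null values were mostly higher but overlapped, and the log2 fold change of 0.21 (SE 0.0957) had an edgeR adjusted p of 0.251. Plin5 was called in 1 of 18 alternatives, with the replicate number as a block (log2 0.22, edgeR adjusted p 0.0169). The numbers were not taken to pair the libraries.

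The last step of triglyceride synthesis is carried out by the enzymes of Dgat1 and Dgat2. Dgat1 had a log2 fold change of 0.12 (SE 0.0591, edgeR adjusted p 0.251). Dgat2 measured 231, 233, 297 and 224 CPM in wild-type and 269, 246, 249.5 and 269 CPM in AE3-null libraries. Wild-type replicate 3 was the highest library and the other wild-type libraries were the 3 lowest. The log2 fold change of Dgat2 was 0.069 (edgeR adjusted p 0.737) with all libraries and 0.17 without wild-type replicate 3 (edgeR adjusted p 0.00818). Adipocyte markers were low: of 9, the 6 that passed the filter summed to 39.4 to 44.3 CPM in wild-type and 32.1 to 51.6 CPM in AE3-null libraries, and Lep, Retn and Adrb3 did not pass it. Neither of the 2 brown adipocyte markers was called. Ucp1 measured 0.371, 0.613, 0.0656 and 1.39 CPM in wild-type and 0.0421, 2.05, 6.95 and 0.0368 CPM in AE3-null libraries. Cidea measured 14.9 to 18.1 and 15.6 to 21.9 CPM, also highest in AE3-null replicate 3. In AE3-null replicates 1 and 4, where Ucp1 had 1 count each, Cidea still stood at 15.6 and 15.7 CPM. The part of fat tissue in the values of single libraries was not tested.

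The thioesterase genes Acot1 (cytosolic) and Acot2 (mitochondrial) release fatty acids from coenzyme A. Acot2, the higher per kilobase, measured 68.0, 73.8, 88.1 and 82.1 CPM in wild-type and 75.4, 85.3, 90.5 and 81.2 CPM in AE3-null libraries. Acot1 had a log2 fold change of 0.14 (SE 0.0741, edgeR adjusted p 0.294) and Acot2 of 0.089 (SE 0.0820, edgeR adjusted p 0.592). The groups overlapped in both. Acot1 shared 32.7% of its 50-base words with transcripts of other genes, 23.5% with Acot2, so reads of this pair may have been split between them.

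Sequence shared with other transcripts also touches some further genes. In the GENCODE M21 transcripts, Cpt1b shared 80.4% of its 50-base words with other gene models, Etfb 57.7%, Hadhb 57.5%, Fabp3 37.3% and Acaa1a 35.5%, the last mostly with its close relative Acaa1b. Acadl, Acsl4 and Cd36 shared none and Acsl1 2.84%, so the 4 called genes were little affected.

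One library stood apart in the 37 genes. Wild-type replicate 3 held the highest of the 4 wild-type values in 24 of the 37 genes (64.9%), compared with 30.3% of all tested genes. It held the highest of all 8 values in 17 of the 37 (45.9%), compared with 13.5% of all tested genes. Those 17 were Slc27a1, Fabp3, Cpt2, Slc25a20, all 4 acyl-CoA dehydrogenase genes, Hadha, Hadhb, Hadh, Acaa2, Eci2, Decr1, Etfa, Etfdh and Dgat2. Its median deviation from the wild-type mean was 0.070 on the log2 scale over the 37 genes and 0.00018 over all tested genes. Wild-type replicate 2 was the lowest in this measure, at -0.051. In the 65 other genes of fatty acid metabolism that were tested, wild-type replicate 3 had a median deviation of -0.014 and 23.1% of the highest values, with 24.6% in wild-type replicate 2. Over all genes, its counts were also the farthest from those of the other wild-type libraries, with a chi-square per gene of 6.55 to 7.63, compared with 5 to 5.33 between the others. Lpl, Pnpla2 and Acacb did not share the pattern: wild-type replicate 3 was the lowest wild-type library for each.

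**Figure D4:**
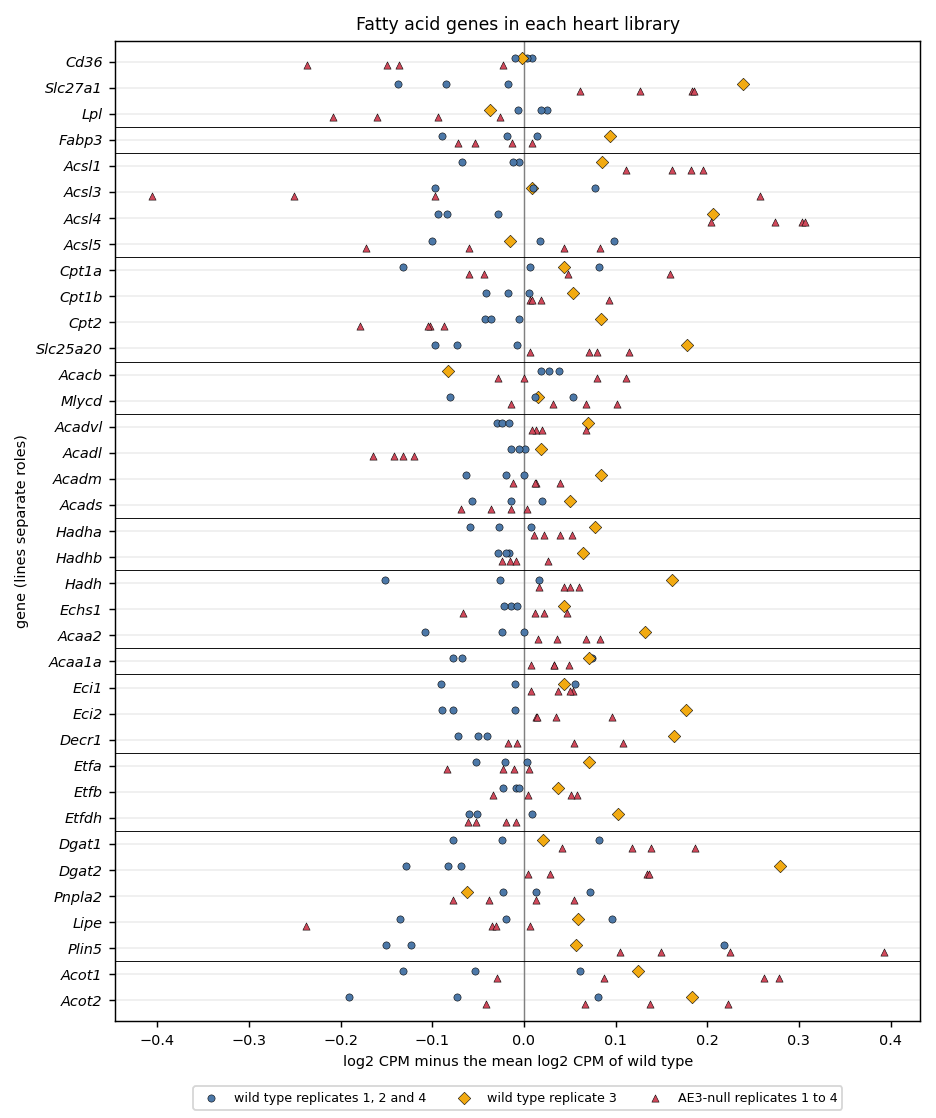
Log2 CPM of each gene in each library minus its mean log2 CPM in wild type, with circles for wild-type replicates 1, 2 and 4, diamonds for wild-type replicate 3 and triangles for AE3-null libraries. The diamonds lie at the right end of the wild-type points in 24 of 37 genes, and the triangles lie fully to the left for Acadl, Cd36 and Cpt2 and fully to the right for Acsl1.

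**Figure D5:**
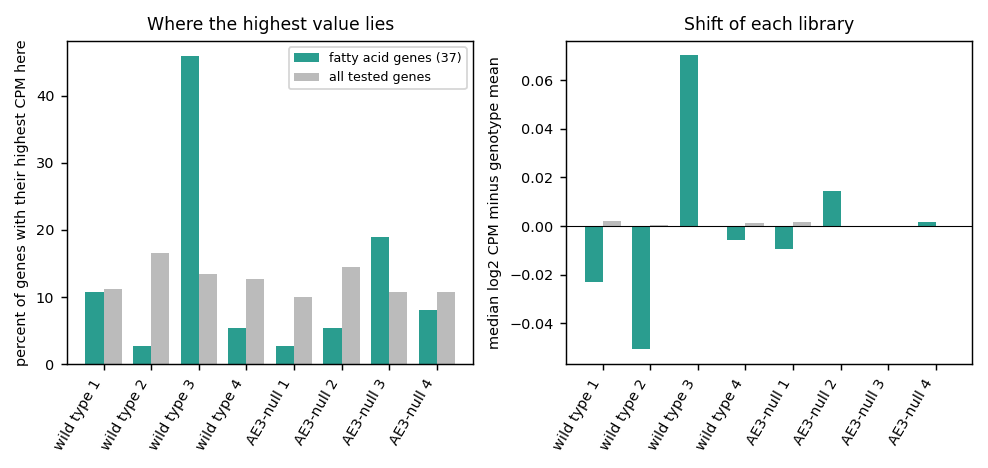
Left, the percent of genes whose highest CPM of the 8 libraries is in each library; right, the median over genes of the log2 CPM minus the mean of the library's genotype. The 37 fatty acid genes (green) have 45.9% of their highest values in wild-type replicate 3, where all tested genes (grey) have 13.5%.

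Leaving out wild-type replicate 3 raised the number of called genes from 4 to 8 of 37. Acsl1, Acsl4, Dgat2, Slc25a20 and Slc27a1 were then called higher and Acadl, Cd36 and Lpl lower. The share of all tested genes that were called rose as well, from 6.47% to 12.1%. The median log2 fold change of the 37 genes went from 0.030 to 0.052, and 27 in place of 24 values were above 0. Without AE3-null replicate 4, only Acadl was called, beside 2.88% of all tested genes. Without wild-type replicate 1, 2 or 4, the called genes were Acadl and Acsl1, beside 4.60%, 4.26% and 3.05% of all tested genes.

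Other genes of the pathway were read from a separate list of 67, of which 65 passed the filter. Of these 65, 8 fell and 1 rose (13.8%, beside 6.47% of all tested genes), and 17 (26.2%) had libraries that did not overlap between the genotypes, against 12.2%. The list was chosen with earlier results of these data known, so these shares are not a test of the pathway. The median log2 fold change of the list was -0.045. Without wild-type replicate 3, 8 were called lower and 6 higher, beside 12.1% of all tested genes, and without wild-type replicate 4, 2 lower and 1 higher, beside 3.05%.

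Abcd2, a peroxisomal transporter of very long-chain acyl-CoA, rose by log2 0.69 (SE 0.0863, edgeR adjusted p 0.000193). It measured 10.2 to 13.7 CPM in wild type, and all AE3-null libraries were higher, at 18.1 CPM or more. It was called in all 18 alternatives. The genes that fell came from several steps. Ppard, a nuclear receptor that activates fatty acid genes, fell by 0.29 (SE 0.0460, edgeR adjusted p 0.00156), from 51.5 to 42.2 CPM on average, and Rxra, the partner receptor that binds DNA with it, fell by 0.14. Ppara, the related receptor that is prominent in heart, had a log2 fold change of -0.021 (SE 0.0612) and was not called.

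Ucp2, a mitochondrial inner-membrane carrier, fell by 0.30 on the log2 scale (SE 0.0536). Mgll, the lipase of the last step of triglyceride breakdown, fell by 0.42 on the log2 scale (SE 0.0868), from 309.8 to 233 CPM on average. The droplet coat genes Plin4 and Plin3 fell by 0.17 and 0.19. Bdh1, which oxidizes the ketone body hydroxybutyrate, fell by 0.38 (SE 0.0773), from 362 to 278 CPM on average, and the dehydrogenase gene Acad11 fell by 0.13. Ppard and Ucp2 kept their calls in all 18 alternatives. The call of Acad11 was lost in 11 of them, that of Rxra in 7, that of Mgll in 6, and those of Plin3, Plin4 and Bdh1 in 5 each.

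Among genes not called, at 5 CPM or more in a genotype, Angptl4 and Pdk4 had the 2 most negative log2 fold changes and Acaca and Acot7 the 2 most positive. Acaca, the cytosolic acetyl-CoA carboxylase, had at most 23.3 CPM in wild-type and 23.5, 30.7, 36.7 and 25.3 CPM in AE3-null libraries, with no overlap but a wide AE3-null spread (log2 0.40, SE 0.144, edgeR adjusted p 0.162). DESeq2 called it (adjusted p 0.0204), as did edgeR with the replicate number as a block (adjusted p 0.00828) and edgeR without AE3-null replicate 1 (adjusted p 0.0471). Acot7, a cytosolic thioesterase, had a log2 fold change of 0.33 (SE 0.151, edgeR adjusted p 0.284).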

How the data were processed

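The deposited table held raw read counts per gene for each library. The submitters' processing notes name bcl2fastq, CASAVA 1.8, TopHat, DESeq and the build mm9. The counting program, strand setting, annotation and read length were not given in the sources used here. Entrez numbers were matched to symbols for 23185 of 23282 genes with a RefSeq table of GRCm38.p6, a different build, so that gene coordinates from it were used only for gene order and the 10 Mb window.

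Genes were kept by edgeR's filterByExpr (minimum count 10), which left 14136. The test was edgeR's robust quasi-likelihood F test on all 8 libraries with TMM factors. A gene was called at a Benjamini-Hochberg adjusted p under 0.05 over all tested genes. CPM use TMM-scaled totals; log2 fold changes are AE3-null over wild type; SE was derived from the F statistic. One count was worth 0.0368 to 0.108 CPM, and the 37 genes had at least 89 counts per library. Exon lengths were unions over GENCODE M21 coding transcripts and may differ from the authors' gene models. The 50-base words were compared on both strands.

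The genes and lists were chosen with earlier results of these data known. All 37 genes are named; those in full have a p under 0.05, no overlap, or the highest level per length in their role. Slc27a1, Dgat2 and Plin5 meet none of these and were given in full after their values were seen. Of the other genes, the called ones and the 2 largest uncalled differences in each direction at 5 CPM or more are named. The ratios to endothelial markers, the neighbours of Acadl and the library pattern were chosen after values were seen. The chi-square per gene between libraries of one genotype was 2.57 to 7.63, above sampling noise. The steps were tested on simulated data. Alternatives were RLE or no scaling factors, no or a stricter filter, DESeq2, limma voom, no robust moderation, an adjusted p under 0.1, the replicate block, the 10 most abundant genes left out and each library left out. The versions were edgeR 4.0.16, DESeq2 1.42.0 and limma 3.58.1 under R 4.3.3.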

Additional observations from a re-analysis of the deposited data

Results flagged for a closer look

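A library far from the others of its genotype was looked for in the 37 genes and the 13 other genes named, in groups of 4 libraries, by the gap to the nearest library as a share of the group's range (Dixon's test). It was found in 6 of 100 groups, where chance gives about 1 in 20. In 5 of the 6 the library was wild-type replicate 3. It was the highest wild-type library for Acadvl, at 1127 CPM with the next at 1061, for Hadhb, at 1539 with the next at 1454, for Decr1, at 376 with the next at 326, and for Dgat2, at 297 with the next at 233. It was the lowest for Acacb, at 537 CPM with the next at 576. The remaining one was Cpt1b, where AE3-null replicate 4 was highest at 790.2 CPM with the next at 750.3.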

How the results depend on the processing

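The number of called genes among the 37 was 3 to 6 in the 10 alternatives that kept all libraries, beside 5.13% to 10.9% of all tested genes. Both upper values came with the threshold at 0.1. With single libraries left out it ranged from 1 to 8, beside 2.88% to 12.1% of all tested genes. For the other fatty acid genes the range with single libraries left out was 3 to 14, and for all tested genes it was 407 to 1727. All tested genes called at an adjusted p under 0.1 numbered 1546. With the replicate number as a block, 5 of the 37 genes were called (Plin5 in addition), 8 other genes and 1002 of all genes. Same-numbered libraries deviated from their genotype means with correlations of 0.192, -0.0178, 0.0396 and 0.0068, and not every library correlated best with its own number, so the numbers were not taken to pair the libraries. With total counts only, 528 of all genes were higher and 361 lower, against 447 and 468, and the median of all genes moved to 0.018. Genes near 0 changed sign in some settings, and none of them was called in any: the log2 fold change of Hadhb was 0.015 with total counts only and 0.00057 with the stricter filter, and that of Pnpla2 was 0.0092 with total counts only. With single libraries left out the log2 fold change ranged from -0.014 to 0.019 for Hadhb, -0.032 to 0.015 for Pnpla2, -0.023 to 0.055 for Cpt1a, -0.0079 to 0.043 for Acadm, -0.0087 to 0.097 for Hadh, -0.062 to 0.00081 for Fabp3, -0.056 to 0.0010 for Etfdh, -0.0085 to 0.029 for Echs1 and -0.074 to 0.018 for Acsl5. The causes were not tested. Acsl3 and Angptl4 gave no value under the stricter filter.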

Other observations

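Angptl4 and Pdk4 varied widely between libraries of the same genotype. Angptl4, a secreted inhibitor of lipoprotein lipase, measured 11.4, 4.98, 9.71 and 7.6 CPM in wild-type and 2.61, 6.36, 8.11 and 2.47 CPM in AE3-null libraries. Pdk4, a kinase that shuts off pyruvate oxidation, measured 711, 556, 407 and 434 CPM and 301, 574, 515 and 242 CPM. In both genes AE3-null replicates 1 and 4 were the lowest of the 8 libraries and AE3-null replicates 2 and 3 lay within the wild-type range. Ucp3, a mitochondrial carrier of muscle, measured 54.1, 32.4, 40.9 and 30.4 CPM in wild-type and 27.8, 38.0, 53.6 and 30.3 CPM in AE3-null libraries, with AE3-null replicates 1 and 4 again the lowest. The log2 fold changes were -0.90 (SE 0.484), -0.38 (SE 0.345) and -0.085 (SE 0.288), and none was called. Ucp3 was named after its values were seen.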
